A study of Mus musculus with 6 samples.

Results

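Solute carriers are the largest group of membrane transporters and move sugars, amino acids, nucleosides, metals, inorganic ions, vitamins and metabolites across the plasma membrane and the membranes of organelles. The genes described here were all rows of the deposited expression table whose symbol begins with Slc or Slco and a family number, and whose level averaged 1 FPKM or more in the 6 samples. FPKM is an expression level, the number of sequenced fragments scaled for transcript length and sequencing depth. Of 388 rows with such a symbol, 168 reached this level. Slc7a11, Slc40a1, Slc11a1, Slc11a2 and Slc35c1 reached it but were not included, and neither was Slc1a2, which did not. This gave 163 genes of the 24341 in the table, in 40 number families. Of these, 159 encode carriers or, in Slc3a2, the heavy chain of carriers, and 4 carry the prefix without being part of a carrier.

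The RNA came from alveolar macrophages (AMs) recovered by bronchoalveolar lavage (BAL), the rinsing of the airspaces, followed by lysis of red blood cells. Donors were female C57BL/6 mice of 6 to 10 weeks, either CD44+/+ or CD44-/-. CD44 is a cell surface receptor for hyaluronan, and CD44-/- mice lack it in every cell type, not only in AMs. Each genotype had 3 samples, each made from the pooled BAL of mice. The pools were of unequal size and most came from only a pair of mice, so SDs and p-values measure how far pools differ and not how far single mice do.

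AMs take up and degrade surfactant, inhaled particles and dying cells, and much of what lysosomes release leaves them through carriers. Amino acid carriers either exchange or cotransport their substrates, and several exchangers are pairs of a light chain that transports and a heavy chain, Slc3a2, that brings it to the surface. Mitochondrial carriers of the Slc25 family link metabolism in the cytosol and the mitochondrial matrix. Zinc enters the cytosol through the Slc39 family and leaves it through the Slc30 family. Nucleotide sugars reach the Golgi and endoplasmic reticulum through the Slc35 family.

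Cd44 itself was listed at 540.1, 534.7 and 526.8 FPKM in the 3 CD44+/+ samples and at 54.7, 54.5 and 51.4 FPKM in the 3 CD44-/- samples, so the samples followed their labels. AM markers were high in all 6 samples, with 8 of 10 listed names found in the table, Itgax between 435 and 495 FPKM and Mrc1 between 493 and 535 FPKM. Markers of other lung cells were also present, and the sums of each list overlapped between genotypes. Sums for 5 airway secretory genes were 811 to 1333 FPKM in CD44+/+ and 620 to 1044 FPKM in CD44-/- samples, with Scgb1a1 between 277 and 571 FPKM, as high as some AM markers. Sums for 7 alveolar type 2 cell genes were 90.6 to 105.8 FPKM and 94.0 to 167 FPKM, of which Napsa and Abca3 made up most in every sample but CD44-/- replicate 3, where Sftpc was the highest of the list. Among its surfactant genes, Sftpb was at 2.13, 1.26 and 1.48 FPKM in CD44+/+ and at 3.80, 2.32 and 6.53 FPKM in CD44-/- samples, without overlap, and Sftpc at 15.5, 6.83 and 9.72 FPKM and at 22.8, 12.4 and 74.2 FPKM. The 4 erythroid genes found summed to 2.12 to 17.3 FPKM and 2.89 to 56.5 FPKM, the highest in CD44-/- replicate 2. The 5 neutrophil genes found summed to 46.8 to 87.5 FPKM and 57.2 to 67.6 FPKM, with Camp at 0 in all samples, and 3 T cell genes and 3 B cell genes summed to no more than 1.61 and 0.392 FPKM. The part of such cells in the values below was not tested. In bulk RNA, fewer cells of a type and less RNA per cell cannot be told apart. Slc34a2, a phosphate carrier of alveolar type 2 cells, and Slc4a1, the anion exchanger of red cells, did not reach 1 FPKM in any sample.

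The level of the 163 genes varied widely among themselves and little between samples. Their mean levels ran from 1.10 to 492 FPKM, with a median of 11.8 FPKM beside 12.2 FPKM over the 10800 genes tested. A mean of at least 10 FPKM was reached by 98 of them and of at least 50 FPKM by 19. Summed over all members, the level was 4209 to 4410 FPKM in CD44+/+ samples and 4240 to 4379 FPKM in CD44-/- samples. The 10 most abundant genes held 41.2% of that sum.

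**Figure D1:**
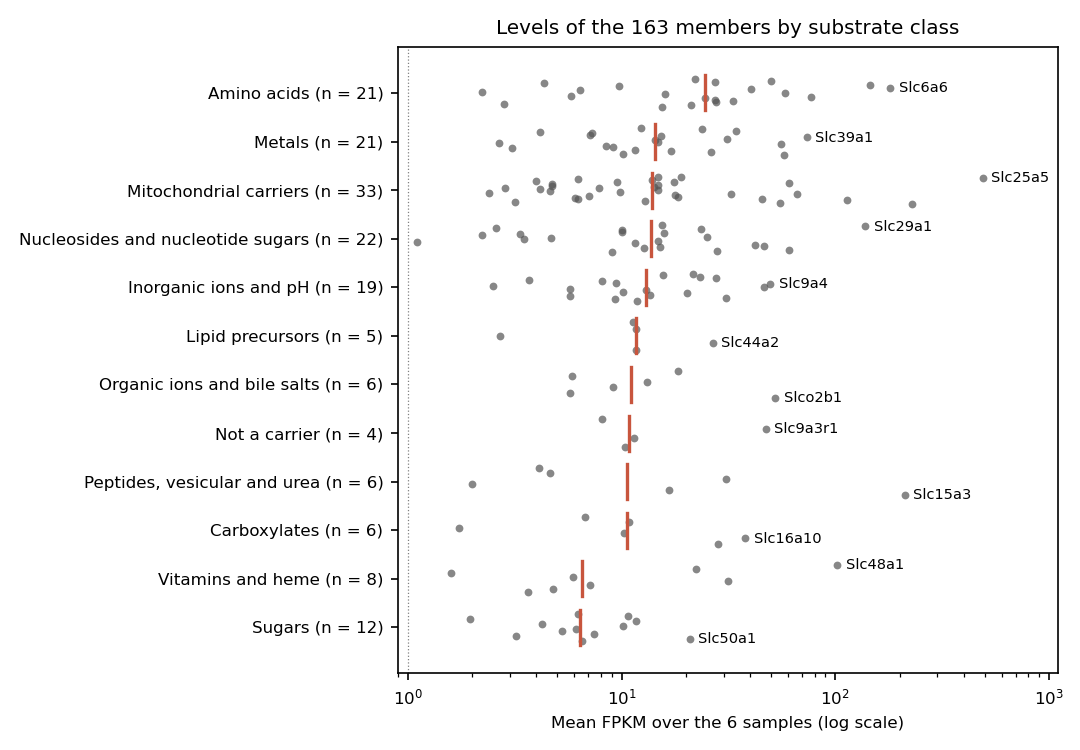
Mean FPKM over the 6 samples (log scale) of each of the 163 genes, in 12 groups by the substrate of their family; grey points are genes, red bars the median of the group, and the highest gene of each group is named. Amino acid genes had the highest group median, and the single highest gene was Slc25a5 at 492 FPKM.

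The most abundant carriers were those of mitochondrial adenine nucleotides and phosphate, of lysosomal peptides, of taurine, of arginine and of nucleosides. Slc25a5, which exchanges ADP for ATP across the inner mitochondrial membrane, was at 501, 494 and 460 FPKM in CD44+/+ and at 490, 479 and 527 FPKM in CD44-/- samples. Slc25a3, the mitochondrial phosphate carrier, had a mean of 229 FPKM. Slc15a3, a lysosomal carrier of histidine and small peptides, was at 216, 208 and 219 FPKM and at 221, 203 and 207 FPKM. The ranges of the genotypes overlapped for each of these 3 genes. Slc6a6, the taurine transporter, had a mean of 181 FPKM. Slc7a2, an arginine transporter known from activated macrophages, had a mean of 145 FPKM. Next in order were the nucleoside transporter Slc29a1, the adenine nucleotide exchanger Slc25a4, the lysosomal heme exporter Slc48a1, the exchanger heavy chain Slc3a2 and the zinc importer Slc39a1. Among the 10, log2 fold changes of CD44-/- over CD44+/+ samples lay between -0.10 and 0.10, and the samples of the genotypes overlapped in 9 of them. Reads of Slc25a5 cannot be assigned with certainty, since 55.6% of the 42-base windows of its transcripts, the length of 1 read, also occur in other annotated genes such as Gm5560. Over 10% of windows were shared in this way in 12 of the 163 genes. Exons of 10 members overlapped a gene on the other strand by over 10%, among them Slc15a3 by 28.1% with Tmem132a, and strand use in the authors' quantification is not given in the sources used here.

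None of the 163 genes passed the test between genotypes. Each gene was compared on log2(FPKM + 0.1) with the two-sided test of limma. P-values were adjusted by the Benjamini-Hochberg method across the 10800 genes that averaged 0.5 FPKM or more, and all 163 members were above that level. At an adjusted p under 0.05, 0 of 163 members were called, beside 0.111% of all genes tested (12 genes). The smallest adjusted p was 0.0816, for Slc1a3. With the replicate number as a block, the count was again 0 and the smallest adjusted p was 0.167, and no alternative that kept all 6 samples called a member. Leaving out CD44+/+ replicate 1 or CD44-/- replicate 1 called 1 member each (backgrounds 0.333% and 0.204%), Slc35g1 and Slc1a3.

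At an unadjusted p under 0.05, limma gave 7 members (4.29%), beside 7.69% of all genes tested. Of these, 4 were higher in CD44-/- samples (2.45% of members, background 4.75%) and 3 were lower (1.84% of members, background 2.94%). With the replicate number as a block, 8 were higher (4.91%, background 6.05%) and 5 lower (3.07%, background 3.67%), and all 7 remained. In both directions the share of members lay below the background, with and without the block, and this difference was not tested. After median-ratio scaling the split was 5 higher and 9 lower (backgrounds 4.6% and 3.72%), and after quantile normalization 6 higher and 8 lower (backgrounds 4.22% and 4.13%). The lower members were then 5.52% and 4.91% of the 163, above the background. Without CD44+/+ replicate 1, 18 members were higher (11.0%, background 8.81%), without CD44-/- replicate 1 only 2 were (1.23%, background 5.16%), and without CD44+/+ replicate 3 there were 8 lower (4.91%, background 2.93%).

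The groups did not overlap in 17 members (10.4%), beside 11.6% of all genes tested. In 4 of them all CD44-/- samples were above all CD44+/+ samples (2.45%, background 6.75%), and in 13 they were all below (7.98%, background 4.88%). For a gene without overlap the exact two-sided permutation test gave p = 0.1, the smallest that 3 samples against 3 allow. The counts were 9 above and 15 below after median-ratio scaling (backgrounds 6.97% and 6.31%) and 6 above and 16 below after quantile normalization (backgrounds 6.23% and 6.81%). CD44+/+ replicate 1 stood highest among the 6 samples in 59 of the 163 members and CD44+/+ replicate 3 lowest in 47. Without either of these samples the counts of separated members were larger, as they were for all genes: 34 above without replicate 1 (20.9%, background 21.7%) and 33 below without replicate 3 (20.2%, background 11.2%).

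Differences between genotypes were small in most members. The log2 fold change was above 0 in 85 members and below 0 in 78. Its median was 0.0031, beside 0.013 over all genes tested, and changed sign to -0.0091 after median-ratio scaling and -0.0083 after quantile normalization. Without CD44+/+ replicate 1 the median was 0.035 (all genes 0.039), and without CD44+/+ replicate 2 or 3 or CD44-/- replicate 1 or 2 it was below 0, at -0.0040, -0.0091, -0.0043 and -0.0021. The log2 fold change was under 0.1 in size in 118 members (72.4%), at least 0.5 in size in 2 and at least 1 in 1. Shares by sign and size were not computed over all genes tested, so these counts describe the members alone. The 95% interval of the fold change lay within 1.5-fold in either direction for 155 of 163 members (95.1%), beside 86.2% of all genes tested. Members average 1 FPKM or more, while the genes tested start at a mean of 0.5 FPKM, so these shares do not compare genes of like level. Whether the gap remains among genes of like level was not tested. The 8 members with a wider interval were Slc1a3, Slc7a1, Slc35g1, Slc19a2, Slc15a2, Slc2a6, Slc16a14 and Slc18b1, which had mean levels of 1.74 to 6.56 FPKM.

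**Figure D2:**
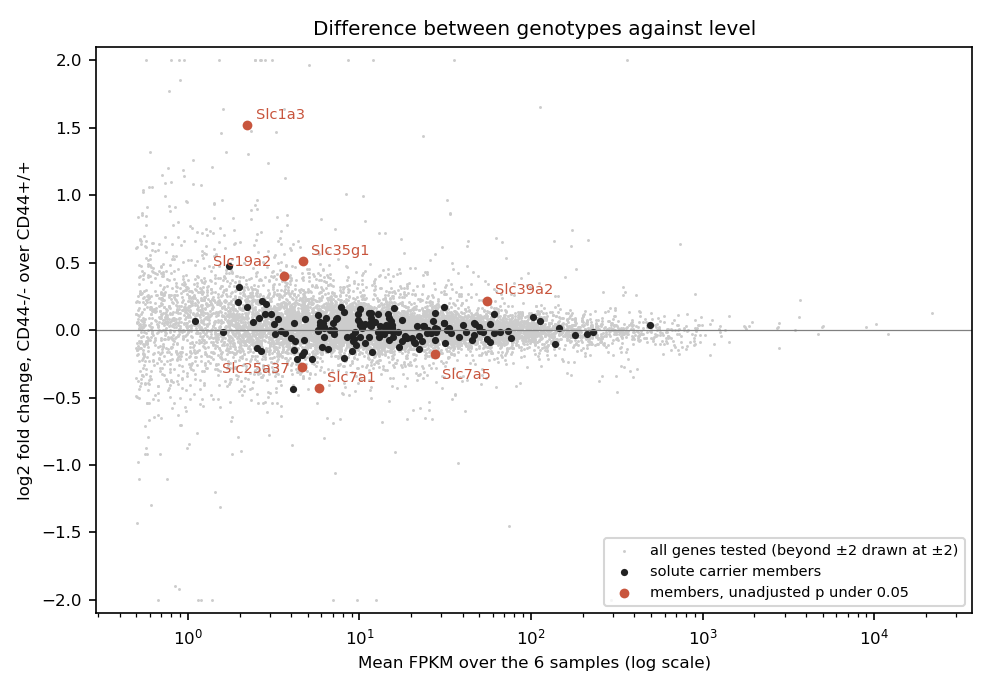
Log2 fold change of CD44-/- over CD44+/+ samples against mean FPKM over the 6 samples (log scale), for all 10800 genes tested (grey), the 163 solute carrier genes (black) and the 7 of them with an unadjusted p under 0.05 (red). Slc1a3 is the only black or red point beyond 1 on the vertical axis, and most members lie within 0.1 of the zero line.

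Slc1a3 had the largest difference of the 163. It encodes a sodium-coupled transporter of glutamate and aspartate, best known from astrocytes, and lies at chr15:8634124-8710807 (mm10). Its level was 1.30, 1.14 and 0.833 FPKM in the CD44+/+ samples and 2.29, 3.96 and 3.83 FPKM in the CD44-/- samples. All CD44-/- samples were above all CD44+/+ samples, and CD44-/- replicate 1 was the lowest of its group. The means were 1.09 ± 0.237 and 3.36 ± 0.929 FPKM (SD, n = 3 each). The log2 fold change was 1.52 with an SE of 0.24 and a 95% interval of 0.97 to 2.06, and limma gave an unadjusted p of 0.000166 and an adjusted p of 0.0816. Without CD44-/- replicate 1 the log2 fold change was 1.77 and limma's adjusted p was 0.0224, within a range of 0.0224 to 0.452 over all alternatives. Sftpb, the type 2 cell gene that was also separate and higher, was highest in CD44-/- replicate 3 and lowest of its group in replicate 2, where Slc1a3 was highest, and the part of type 2 cells in the Slc1a3 difference was not tested. In CD44-/- samples its mean level was still below that of all but 1 of the 21 amino acid carriers described below, the exception being Slc38a9. Slc1a5, which carries glutamine and other neutral amino acids and is the other member of its family here, was at 22.9, 24.1 and 22.5 FPKM and at 19.8, 21.0 and 22.3 FPKM. The ratio of Slc1a5 to Slc1a3 was 17.6 to 27.0 in CD44+/+ samples and 5.30 to 8.65 in CD44-/- samples. With Slc1a3 separate and higher and Slc1a5 separate and lower, this ratio had to separate the genotypes and is no further result.

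**Figure D3:**
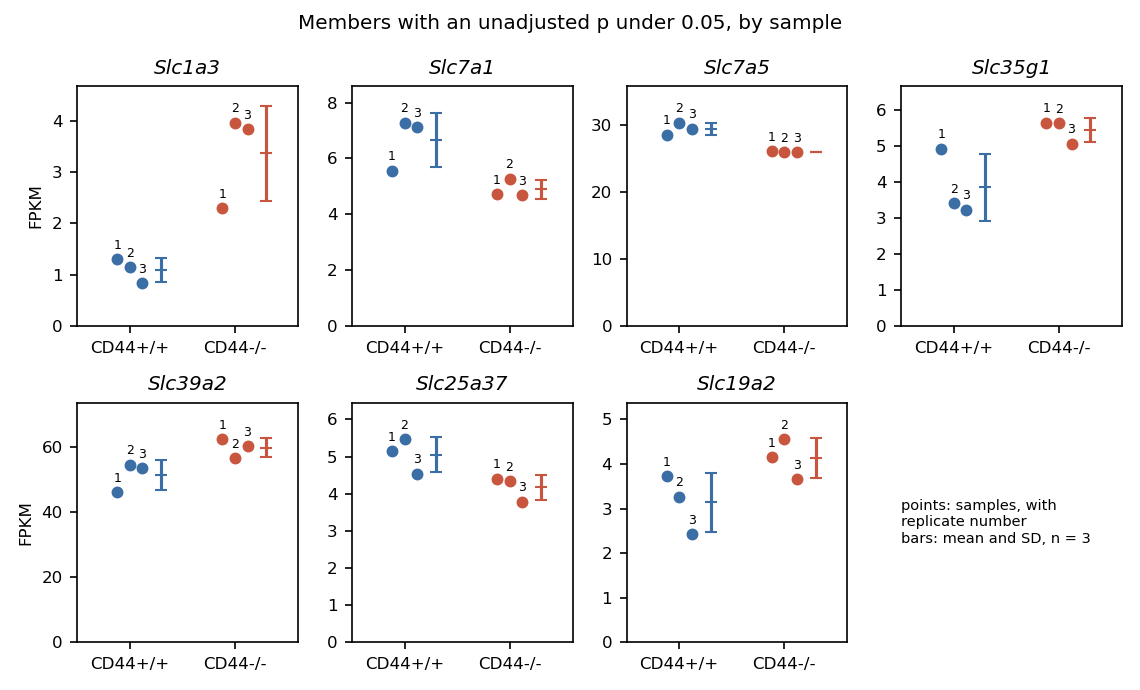
FPKM in each sample (points, numbered by replicate) of the 7 genes with an unadjusted p under 0.05, with the mean and SD of each genotype (bars, n = 3); each axis starts at 0. The samples of the genotypes are separate in 6 of the 7 genes and overlap in Slc19a2.

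The other 3 genes that were higher at an unadjusted p under 0.05 encode carriers of zinc, thiamine and an Slc35 family protein. Slc35g1 (chr19:38395980-38405607) was at 4.93, 3.42 and 3.23 FPKM in CD44+/+ and at 5.66, 5.65 and 5.07 FPKM in CD44-/- samples. Its log2 fold change was 0.51 with an SE of 0.15, with a limma adjusted p of 0.427. CD44+/+ replicate 1 lay closer to the CD44-/- samples than to its own group, and without it the log2 fold change was 0.70 and limma's adjusted p 0.0483, within a range of 0.0483 to 0.967 over all alternatives. Slc39a2, a zinc importer (chr14:51893610-51896745), was at 46.1, 54.4 and 53.4 FPKM and at 62.3, 56.5 and 60.1 FPKM, a log2 fold change of 0.22 with an SE of 0.07. Its groups did not overlap, and limma's adjusted p was 0.492. Slc19a2, a thiamine transporter (chr1:164249046-164265385), was at 3.72, 3.27 and 2.43 FPKM and at 4.15, 4.56 and 3.66 FPKM, a log2 fold change of 0.40 with an SE of 0.16. CD44-/- replicate 3 lay below CD44+/+ replicate 1, and limma's adjusted p was 0.615. Leaving out 1 sample at a time moved the log2 fold change of Slc19a2 between 0.23 and 0.53.

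The 3 genes that were lower at an unadjusted p under 0.05 encode amino acid transporters and a mitochondrial iron importer. Slc7a1, which carries arginine and lysine (chr5:148327410-148399904), was at 5.56, 7.29 and 7.13 FPKM in CD44+/+ and at 4.72, 5.28 and 4.67 FPKM in CD44-/- samples. The log2 fold change was -0.43 with an SE of 0.12, with a limma adjusted p of 0.369. Slc7a5, the light chain of the large neutral amino acid exchanger (chr8:121881146-121907686), was at 28.5, 30.3 and 29.4 FPKM and at 26.0, 25.9 and 25.9 FPKM. Its log2 fold change was -0.18 with an SE of 0.05, with a limma adjusted p of 0.385. Slc25a37, mitoferrin of the inner mitochondrial membrane (chr14:69241851-69285103), was at 5.14, 5.47 and 4.54 FPKM and at 4.40, 4.33 and 3.78 FPKM, a log2 fold change of -0.27 with an SE of 0.11. The groups were separate in all 3 genes, by 0.14 FPKM in Slc25a37, and its adjusted p in limma was 0.591. In Slc25a37, 10.4% of the 42-base windows also occur in Gm16867.

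Amino acid carriers made up 21 of the 163 genes and 18.6% of their summed level, and held 6 of the 17 genes without overlap (28.6% of the class, background 11.6% of all genes tested). Below all CD44+/+ samples were Slc7a1, Slc7a5, Slc1a5, Slc7a6 and Slc38a1, and above them was Slc1a3. This set was named after its values were seen. The neutral and cationic amino acid carriers among the 5 lower genes differed by -0.43 to -0.07 on the log2 scale, and Slc7a1 and Slc7a5 had an unadjusted p under 0.05 in limma. With the replicate block Slc7a6 did too, at an unadjusted p of 0.0419 and a limma adjusted p of 0.487. Slc7a6, a light chain that exchanges cationic for neutral amino acids, was at 4.99, 4.43 and 4.56 FPKM and at 4.36, 3.83 and 3.84 FPKM. Slc38a1, a sodium-coupled carrier of glutamine, was at 28.6, 27.7 and 28.4 FPKM and at 26.6, 27.6 and 26.2 FPKM. In Slc38a1 the gap between the groups was 0.12 FPKM. The log2 fold change was above 0 in 11 of the 21 genes and below 0 in 10, with a median of 0.015.

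**Figure D4:**
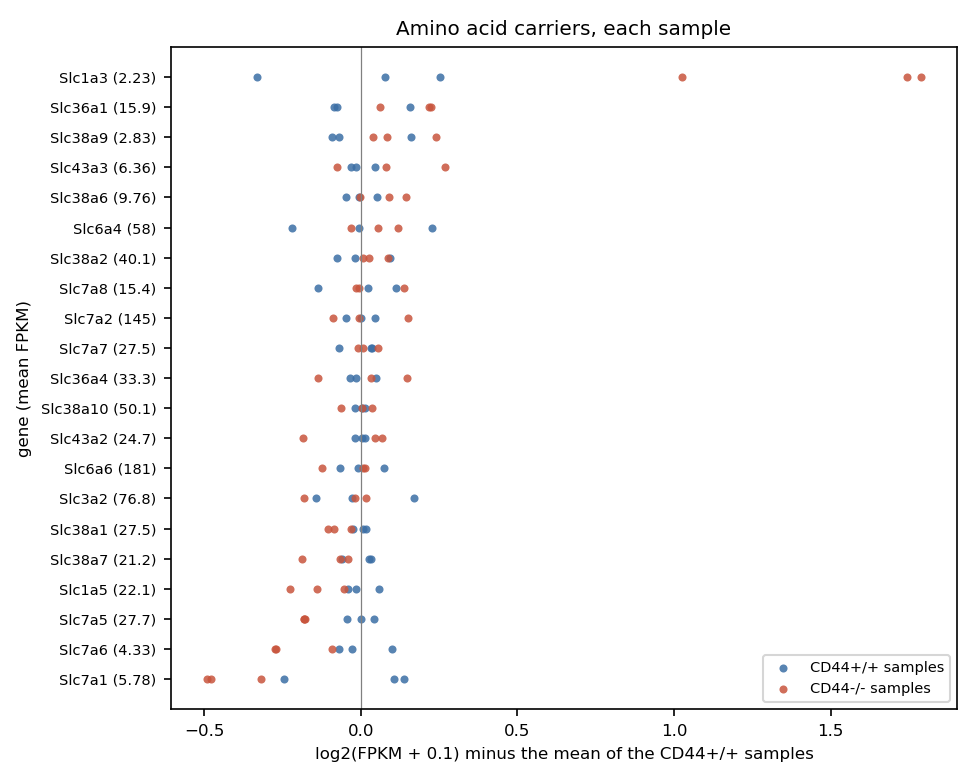
Level of each of the 21 amino acid carriers in each sample, as log2(FPKM + 0.1) minus the mean of the 3 CD44+/+ samples (blue: CD44+/+, red: CD44-/-), in order of the difference between genotypes, with the mean FPKM in brackets. Slc1a3 stands apart at the top, the 5 genes with all red points left of the blue points are Slc38a1, Slc1a5, Slc7a5, Slc7a6 and Slc7a1, and most genes lie within 0.3 of 0.

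Within the class, the arginine carriers Slc7a1 and Slc7a2 took different places. Slc7a2 was at 144, 139 and 149 FPKM in CD44+/+ and at 160, 143 and 135 FPKM in CD44-/- samples, a log2 fold change of 0.02 with an SE of 0.07. The ratio of Slc7a2 to Slc7a1 was 19.1 to 25.9 in CD44+/+ samples and 27.1 to 33.9 in CD44-/- samples. The heavy chain Slc3a2 was at 70.8, 76.8 and 88.1 FPKM and at 79.1, 69.1 and 77.2 FPKM, and its groups overlapped. Its light chains among the members, Slc7a5, Slc7a6, Slc7a7 and Slc7a8, summed to 75.3, 78.1 and 76.4 FPKM and to 72.8, 72.0 and 74.8 FPKM. The sums of the genotypes did not overlap, and of the genes in them Slc7a5 and Slc7a6 were themselves separate and lower. Slc7a11, another light chain, was left out of this sum as of the members. The ratio of these summed light chains to the heavy chain lay between 0.867 and 1.06 in the 6 samples and overlapped between genotypes. Slc7a7, at a mean of 27.5 FPKM, and Slc7a8, at 15.4 FPKM, had log2 fold changes of 0.02 and 0.04.

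Of the remaining amino acid genes, Slc6a4 encodes the serotonin transporter, which shares its family with amino acid carriers. It was at 66.4, 56.5 and 48.7 FPKM in CD44+/+ and at 61.7, 55.6 and 59.0 FPKM in CD44-/- samples, and the groups overlapped. Slc6a6, the taurine transporter, was at 182, 175 and 193 FPKM and at 184, 185 and 168 FPKM. Slc38a2, an amino acid carrier known to respond to starvation for amino acids, was at 42.2, 39.1 and 37.5 FPKM and at 42, 39.8 and 40.3 FPKM. The lysosomal carriers Slc36a1 and Slc38a9 had log2 fold changes of 0.17 and 0.12 with overlapping groups. With the replicate block limma gave Slc36a1 an unadjusted p of 0.0422 and an adjusted p of 0.488.

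Mitochondrial carriers were the largest class, with 33 genes and 31.2% of the summed level. The class holds all members of the Slc25 family by number, the peroxisomal Slc25a17 included. Their log2 fold changes lay between -0.27 and 0.20 with a median of -0.015, and the 95% interval was within 1.5-fold for all 33. No gene of the class was above all CD44+/+ samples in all CD44-/- samples, and Slc25a37, Slc25a12, Slc25a13 and Slc25a24 were below them, which left 12.1% of the class without overlap (background 11.6%). Slc25a12 and Slc25a13 are the aspartate and glutamate exchangers of the inner membrane, and Slc25a24 exchanges ATP-magnesium for phosphate. Slc25a13 was at 6.04, 6.47 and 6.42 FPKM in CD44+/+ and at 5.60, 5.82 and 5.95 FPKM in CD44-/- samples. Slc25a12 was at 18.9, 18.5 and 18.6 FPKM and at 18.2, 17.4 and 18.3 FPKM. Slc25a24 was at 46.6, 47.7 and 45.7 FPKM and at 43.4, 44.6 and 45.3 FPKM. In these 3 genes, which were named after their values were seen, the difference was -0.12 to -0.06 on the log2 scale.

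Carriers of the same class that feed lipid synthesis and fat oxidation differed little. Slc25a1, which exports citrate for the synthesis of fatty acids and sterols, was at 57.6, 58.1 and 53.7 FPKM and at 55.6, 51.3 and 54.6 FPKM, a log2 fold change of -0.07 with an SE of 0.06. Slc25a20, which brings acylcarnitines into the matrix, was at 33.2, 33.1 and 31.3 FPKM and at 33.4, 31.9 and 32.3 FPKM. The groups overlapped in both genes. Slc25a39, a mitochondrial glutathione importer, was at 61.1, 54.9 and 58.5 FPKM and at 64.2, 60.8 and 64.5 FPKM. Its log2 fold change was 0.12 with an SE of 0.06, and the groups overlapped by CD44+/+ replicate 1. With the replicate block its unadjusted p in limma was 0.0334. The level of Slc25a28, the second mitoferrin, had a log2 fold change of 0.09, where that of Slc25a37 was -0.27. The ratio of the adenine nucleotide exchangers Slc25a5 and Slc25a4 lay between 4.13 and 4.62 in the 6 samples.

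Metal carriers held 21 genes, with log2 fold changes of -0.15 to 0.22. Among the importers, Slc39a2 was separate and higher, and Slc39a7, Slc39a12 and Slc39a14 were separate and lower, so that 19.0% of the class was without overlap (background 11.6% of all genes tested). Slc39a14, which carries zinc, iron and manganese, was at 18.0, 16.9 and 18.3 FPKM in CD44+/+ and at 16.6, 16.0 and 16.0 FPKM in CD44-/- samples, with a limma adjusted p of 0.683. Slc39a7, which releases zinc from the endoplasmic reticulum, was at 60.5, 58.6 and 58.1 FPKM and at 56.6, 56.2 and 53.9 FPKM. Slc39a12, a zinc importer of low level here, was at 3.02, 2.66 and 2.74 FPKM and at 2.61, 2.38 and 2.55 FPKM. Reads of Slc39a7 cannot be assigned with certainty, since the overlapping gene Gm20427 holds 80.8% of its 42-base windows. The most abundant metal carrier, Slc39a1, was at 72.9, 71.6 and 77.3 FPKM and at 77.1, 71.5 and 72.6 FPKM, and 23.7% of its windows are shared with a pseudogene. Of the zinc exporters, Slc30a1, at the plasma membrane, was at 2.73, 2.85 and 3.23 FPKM and at 3.76, 2.85 and 3.01 FPKM. The copper importer Slc31a1 and the related Slc31a2 had log2 fold changes of -0.05 and -0.02.

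Nucleoside and nucleotide sugar carriers held 22 genes, placed by family number. Whether each Slc35 gene, Slc35g1 among them, carries nucleotide sugars was not checked. Slc29a1, the main equilibrative nucleoside transporter of the plasma membrane, was at 136, 146 and 148 FPKM in CD44+/+ and at 135, 130 and 135 FPKM in CD44-/- samples. Its groups did not overlap, but were only 0.739 FPKM apart, between CD44+/+ replicate 1 and CD44-/- replicate 1. The log2 fold change was -0.10 with an SE of 0.05, with a limma adjusted p of 0.699. Slc29a3, the lysosomal nucleoside exporter, was at 10.9, 9.38 and 9.44 FPKM and at 10.3, 10.3 and 10.2 FPKM. The 19 Slc35 genes lay between 2.21 and 61.0 FPKM, with Slc35c2 the highest. Apart from Slc35g1, the log2 fold changes of the class were no larger in size than the 0.17 of Slc35d1.

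The class of peptide, vesicular and urea carriers held 6 genes, with no urea carrier among them. Slc15a4, a lysosomal histidine and peptide carrier that takes part in signalling by endosomal Toll-like receptors, was at 33.5, 27.9 and 29.7 FPKM in CD44+/+ and at 33.6, 29.2 and 31.5 FPKM in CD44-/- samples. The ratio of Slc15a3 to Slc15a4 lay between 6.45 and 7.46 in the 6 samples. Slc15a2, a proton-coupled peptide importer named here after its values were seen, had the widest spread within genotypes of all 163 genes. It was at 5.74, 5.50 and 2.73 FPKM and at 5.49, 3.34 and 1.85 FPKM. It was lowest in replicate 3 of both genotypes, and its log2 fold change was -0.43 with a 95% interval of -1.32 to 0.46. Leaving out 1 sample at a time moved it between -0.80, without CD44-/- replicate 1, and -0.045, without CD44-/- replicate 3. With the replicate block limma gave an unadjusted p of 0.0195 and an adjusted p of 0.400, and without it an unadjusted p of 0.295.

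Sugar carriers were the class with the lowest median level, 6.40 FPKM over 12 genes, and none was without overlap (background 11.6%). The 12 include Slc5a6, at 6.15 FPKM, placed by its family of sugar, inositol and vitamin carriers although it carries vitamins. Vitamin and heme carriers had a median of 6.51 FPKM, so which class was lowest rests on this placement. Slc2a1, the common glucose importer, was at 9.84, 10.9 and 14.1 FPKM in CD44+/+ and at 12.5, 11.4 and 11.4 FPKM in CD44-/- samples. Slc2a6, a lysosomal member of the glucose transporter family, was at 3.25, 8.37 and 9.85 FPKM and at 4.45, 7.27 and 6.18 FPKM. In both genotypes replicate 1 was the lowest for Slc2a6, and the 95% interval of its log2 fold change ran from -0.99 to 0.71. With the replicate block limma gave an unadjusted p of 0.496, and without it one of 0.714. Slc37a2, a glucose-6-phosphate exchanger of macrophages, was at 6.27, 5.83 and 4.90 FPKM and at 5.06, 4.57 and 4.92 FPKM. The groups overlapped through CD44+/+ replicate 3, and the log2 fold change was -0.21 with an SE of 0.11. Slc37a3 was at 10.2, 9.69 and 8.84 FPKM and at 10.9, 10.9 and 10.2 FPKM, where CD44+/+ replicate 1 and CD44-/- replicate 3 had equal values. With the replicate block its unadjusted p in limma was 0.0456.

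Monocarboxylate carriers held 6 genes, all with overlapping groups. Slc16a3, the lactate exporter of glycolytic cells, was at 25.7, 27.9 and 31.3 FPKM in CD44+/+ and at 28.1, 29.7 and 27.2 FPKM in CD44-/- samples. Slc16a1, which carries lactate and pyruvate, was at 6.75, 6.44 and 6.95 FPKM and at 5.77, 7.33 and 7.18 FPKM. The ratio of Slc16a3 to Slc16a1 was 3.81 to 4.50 and 3.79 to 4.87. The most abundant of the class was Slc16a10, a carrier of aromatic amino acids, at 38.0 FPKM. Slc16a14, at 1.74 FPKM, had a log2 fold change of 0.47 with a 95% interval of -0.08 to 1.03, and with the replicate block its unadjusted p in limma was 0.0398.

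Carriers of lipid precursors held 5 genes, with log2 fold changes of -0.05 to 0.22 and overlapping groups in all 5. Slc27a1 and Slc27a4 take part in the uptake and activation of fatty acids. Slc27a1 was at 12.8, 11.7 and 10.2 FPKM in CD44+/+ and at 11.1, 11.6 and 10.6 FPKM in CD44-/- samples, and Slc27a4 at 12.2, 11.3 and 10.4 FPKM and at 12.3, 12.2 and 11.6 FPKM. Slc33a1 brings acetyl-CoA into the endoplasmic reticulum and was at 11.7, 10.6 and 11.4 FPKM and at 12.7, 12.6 and 11.4 FPKM. For the choline carriers, Slc44a2 had a mean of 26.8 FPKM and Slc44a1 one of 2.71 FPKM. Slc44a1 had the largest difference of the class at 0.22 with an SE of 0.15, and 0.14 to 0.34 with 1 sample left out. The 95% interval lay within 1.5-fold for all 5 genes.

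Vitamin and heme carriers held 8 genes, of which Slc19a2 is given above. Slc48a1, which lets heme out of lysosomes after red cells are degraded, was at 97.4, 94.2 and 105 FPKM in CD44+/+ and at 110, 105 and 102 FPKM in CD44-/- samples, a log2 fold change of 0.10 with an SE of 0.06. Slc46a1, a folate carrier, was at 1.56, 1.47 and 1.73 FPKM and at 1.87, 1.14 and 1.79 FPKM. Slc23a2, a vitamin C transporter, had a log2 fold change of -0.09, and the riboflavin transporter Slc52a3 had one of -0.04. The groups overlapped in all 8 genes.

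Carriers of inorganic ions held 19 genes, and the 95% interval lay within 1.5-fold for all 19. The most abundant was Slc9a4, a sodium and proton exchanger, at 51.1, 48.3 and 48.4 FPKM in CD44+/+ and at 52.1, 47.4 and 50.9 FPKM in CD44-/- samples. Slc12a9, of the cation and chloride cotransporter family, was the one gene without overlap in the class (5.26%, background 11.6%) and was named after its values were seen. It was at 8.02, 7.28 and 7.79 FPKM and at 8.82, 8.45 and 8.09 FPKM, a log2 fold change of 0.13 with a limma adjusted p of 0.779. Organic ion and bile salt carriers held 6 genes with overlapping groups, led by the organic anion carrier Slco2b1 at 53.8, 53.6 and 50.8 FPKM and at 51.3, 52.9 and 52.5 FPKM.

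The 4 genes that carry the prefix without being carriers had overlapping groups. Slc9a3r1, a scaffold protein of the membrane, had a mean of 47.2 FPKM and a log2 fold change of 0.04. Slc9a3r2, its paralogue, was at 9.99, 6.65 and 9.62 FPKM in CD44+/+ and at 8.20, 7.09 and 7.09 FPKM in CD44-/- samples. Slc4a1ap, an adaptor protein, and Slc7a6os, a gene on the opposite strand of Slc7a6, had log2 fold changes of 0.02 and 0.13. Leaving these 4 genes out changed none of the counts of called or separated members.

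Transport genes without an Slc symbol were compared from a list. Of 46 such names, which include the mitochondrial pyruvate carrier and the glycoproteins that accompany monocarboxylate carriers, 37 were tested, and limma called 0 at an adjusted p under 0.05, beside 0.111% of all genes tested. At an unadjusted p under 0.05, 1 was higher and 1 lower (backgrounds 4.75% and 2.94%). The higher was Nipal3, a magnesium transporter by family, with a log2 fold change of 0.17 and a limma unadjusted p of 0.0497, which was 0.0574 with the replicate block. The median log2 fold change of the 37 genes was 0.015, beside 0.013 over all genes tested.

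The limit of 1 FPKM was close to a few genes. Just above it lay Slc29a2, at 1.06, 1.15 and 1.0 FPKM in CD44+/+ and at 1.10, 1.30 and 1.0 FPKM in CD44-/- samples, and then Slc46a1. Just below it lay Slc25a42, at a mean of 0.944 FPKM, and Slc16a11, at a mean of 0.937 FPKM. In all, 219 rows with the prefix that were not left out by name were below the limit, 88 of them at 0 in all 6 samples.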

How the data were processed

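RNA of AMs from 3 CD44+/+ and 3 CD44-/- samples was sequenced in paired-end reads of 42 bp from a stranded mRNA library. The authors mapped the reads onto the mm10 genome using STAR, and the FPKM values they deposited are the output of Cufflinks, scaled for depth and length. Their Cuffdiff results in the same table (fold changes, p-values and q-values) were not used. The annotation they counted on is not given in the sources used here. Gene names with positions stood in another order than the expression values, so positions were looked up by name and are given with a first base of 1. In 1 of 24341 rows (Rapgef6) a value was lacking, and the row was left out. In 57 of the 163 members (35.0%, beside 19.0% of all rows) values had more than 3 significant digits, and this held for 4 of the 8 members with the widest intervals; how the authors made these values is not stated. All per-sample columns were mapped to samples by their titles.

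Genotypes were compared using limma 3.58.1 in R 4.3.3 (lmFit, eBayes with trend) on log2(FPKM + 0.1), which understates changes of low genes, and figures and counts with Python 3.11.15. The comparison was tested on simulated data first. Exact permutation tests used scipy 1.17.1. Shared windows and overlaps were computed on GENCODE vM21. Steps between the lowest values put the depth of the other samples at 0.814 to 1.05 times that of CD44+/+ replicate 1, and absolute depth is unknown. Deviations from the group means correlated between same-numbered samples (r = 0.212, 0.132 and 0.211 across genes), so the numbers were taken to pair the samples, from the data and not from the labels.

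The members, substrate classes and lists were chosen with earlier results of these data known. Genes were named by rule (the 12 smallest p-values, the 10 highest levels, the highest of each class, the genes nearest the limit of 1 FPKM, matches that are not carriers, and a list of 25 carriers of known interest in macrophages and lung). All other members named were chosen after their values were seen, to fill in a class or a family. Alternatives were a pseudocount of 1 or 0.01 FPKM, a filter at 1 FPKM or none, median-ratio and quantile scaling, eBayes without trend or robust, the replicate block and leaving out each sample. Leaving out the 4 matches that are not carriers was added after seeing the data. The result for 1 gene of the list of other transport genes is not reported here.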

Additional observations from a re-analysis of the deposited data

How the results depend on the processing

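No call at an adjusted p under 0.05 changed under the alternatives that kept all 6 samples, while the counts at weaker limits moved with the setting, and the cause was not tested unless stated. Members lower at an unadjusted p under 0.05 numbered 3, and 5 with no filter (3.07% of members, background 2.69%), 9 after median-ratio scaling, 8 after quantile normalization and 5 with the replicate block. Members higher numbered 4, and 8 with the replicate block. Beside these counts of higher and lower members, the block changed no call at an adjusted p under 0.05. It left the count of other transport genes at 2 but not the genes, since Tusc3 took the place of Nipal3. Tusc3 was lower, at a log2 fold change of -0.16, with a limma unadjusted p of 0.0128 with the block and 0.0834 without it. Members separated and higher numbered 4, and 9 after median-ratio scaling. Other transport genes at an unadjusted p under 0.05 numbered 2, and 1 with a pseudocount of 1 FPKM, 4 after median-ratio scaling, 0 with eBayes without a trend and 1 with robust eBayes.

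When each sample was left out in turn, adjusted calls ranged from 0 to 1 (Slc35g1 without CD44+/+ replicate 1 and Slc1a3 without CD44-/- replicate 1), members higher at an unadjusted p under 0.05 from 2 to 18 (backgrounds 3.12% to 8.81%), members lower from 2 to 8 (backgrounds 1.87% to 3.72%), separated members from 7 to 34 higher (backgrounds 9.56% to 21.7%) and from 15 to 33 lower (backgrounds 7.56% to 11.2%), and other transport genes from 0 to 5. Separation is easier to reach with fewer samples by construction. The 18, the 34 and the 5 were without CD44+/+ replicate 1, the 8 and the 33 without CD44+/+ replicate 3, the 2 higher without CD44-/- replicate 1, and the 2 lower and the 0 without CD44-/- replicate 2.

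None of the 12 genes with the smallest p changed direction in 15 alternatives, which was largely fixed in advance. In all of them but Slc19a2 and Slc25a39 the groups were separate, so leaving out a sample could not change the direction. Direction did change for Slc2a6, at -0.14, and for values nearer to 0. After median-ratio scaling the log2 fold change was -0.0096 for Slc16a1, -0.0057 for Slc16a3 and -0.012 for Slc25a20, and after quantile normalization -0.021 for Slc29a2, -0.0028 for Slc4a1ap, -0.027 for Slc16a1, -0.0018 for Slc16a3 and -0.012 for Slc25a20. Leaving out each sample gave log2 fold changes of -0.0074 to 0.12 for Slc15a4, -0.059 to 0.11 for Slc16a1, -0.060 to 0.081 for Slc16a3, -0.027 to 0.015 for Slc25a20, -0.046 to 0.037 for Slc25a3, -0.00058 to 0.068 for Slc25a5, -0.14 to 0.022 for Slc27a1, -0.024 to 0.15 for Slc29a2, -0.076 to 0.18 for Slc2a1, -0.63 to 0.16 for Slc2a6, -0.036 to 0.029 for Slc39a1, -0.13 to 0.024 for Slc3a2, -0.14 to 0.20 for Slc46a1, -0.072 to 0.072 for Slc4a1ap, -0.068 to 0.010 for Slc6a6, -0.047 to 0.073 for Slc7a2, -0.016 to 0.035 for Slc7a7, -0.028 to 0.095 for Slc7a8, -0.018 to 0.11 for Slc9a3r1, -0.0038 to 0.064 for Slc9a4 and -0.039 to 0.0022 for Slco2b1. Absolute depth is unknown, so no counting interval is given for genes near 1 FPKM.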
